A study of Mus musculus with 4 samples.

Results

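Inhibitory receptors are surface proteins that lower the response of an activated lymphocyte when they meet their ligands, and several of them are targets of cancer immunotherapy. T cells that meet antigen for long in a tumor can carry several of these receptors at once, a state called exhaustion, and the HMG-box factor Tox drives that programme. Regulatory T cells (Treg cells), which restrain other T cells and depend on the factor Foxp3, are known for high Ctla4. The 9 genes described here, of 32285 in the files, were chosen by name and not by a threshold on their values. They are the receptors Pdcd1 (the PD-1 gene), Ctla4, Lag3, Tigit, Havcr2 (the TIM-3 gene) and Cd160, the ectoenzyme Entpd1 (the CD39 gene), which breaks down extracellular ATP, and the factors Tox and Tox2. All 9 were found. Each was followed in CD8 T cells, conventional (Foxp3-negative) CD4 T cells, Treg cells, natural killer (NK) cells and gamma-delta T cells.

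The cells came from tumors grown in wild-type (WT) or Lrrc25-/- mice, in a study of how loss of Lrrc25, which encodes a membrane protein of myeloid cells, changes antitumor immunity. B16F10, a melanoma line, was taken on day 14 after inoculation and MC38, a colon carcinoma line, on day 26, and by the labels the mice were otherwise untreated. Each of the 4 libraries held 1 pool of tumor tissue from 3 mice of 1 genotype, and its CD45+ cells, isolated with beads, were mixed 5 to 1 with the unsorted suspension. The labels used here give neither the allele nor the strain, age or sex of the mice. Tumor line, day and library cannot be told apart when the models are compared, and within a model each genotype is 1 library, so there is no test between genotypes there.

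The libraries held 105338548 to 138841749 UMIs (unique molecular identifiers, 1 per captured RNA molecule), and pairs of libraries shared 0.915% to 1.40% of the barcodes of the smaller one. Lrrc25 measured 159 and 90.6 CPM (UMIs per 1000000 UMIs of the cells in question) in macrophages of the WT B16F10 and WT MC38 pools and 4.71 and 2.17 CPM in the Lrrc25-/- pools. Lymphocytes were gated on raw UMIs of markers that include none of the 9 genes. The gates gave 172, 632, 579 and 894 CD8 T cells in the WT B16F10, Lrrc25-/- B16F10, WT MC38 and Lrrc25-/- MC38 pools, the order used throughout. Conventional CD4 T cells numbered 41, 100, 68 and 115, Treg cells 35, 81, 52 and 130, NK cells 69, 120, 121 and 183 and gamma-delta T cells 13, 46, 10 and 60. By construction CD8 T cells held 867 to 1162 CPM of Cd8a and Cd8b1 together, Treg cells 189 to 446 CPM of Foxp3 and NK cells 85.2 to 146 CPM of Ncr1. Median depths of CD8 T cells were 3367, 2714, 4548 and 4224 UMIs. In the same lymphoid clusters 284, 678, 253 and 533 cells met no gate, with median depths of 1626.5, 1661, 2341 and 2615 UMIs. Il2ra and Ikzf2, Treg markers that the gate did not use, were higher in Treg than in CD8 T cells by 2.58 (SE 0.18, adjusted p = 4.75e-10) and 2.03 (SE 0.18, adjusted p = 2.13e-08) on the log2 scale in edgeR.

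A further 161 of 333 CD8-gated cells in the WT B16F10 pool lay in sub-clusters that carried genes of other lineages (of macrophages, dendritic cells, plasma cells or neutrophils) or a high share of doublets, against 87 of 719, 7 of 586 and 9 of 903 in the other pools. They were left out by a rule set after the data were seen. In the cells that stayed, the 8 genes of the macrophage list made up 0.0405%, 0.0423%, 0.0216% and 0.0442% of CD8 T cell UMIs. With the dropped cells included, that share was 0.525% and 0.129% in the B16F10 pools. The Entpd1 result in B16F10 CD8 T cells, which turns on these cells, is given both ways. Other calls that change with them are mostly given as counts of members, in the closing part on processing.

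The genes lie apart in the genome (GRCm38, GENCODE M21). Pdcd1 (ENSMUSG00000026285) lies on chromosome 1 at 94038305 to 94052553, minus strand, with 5 exons. Ctla4 (ENSMUSG00000026011) lies on chromosome 1 at 60887000 to 60915832, plus strand, with 3 to 4 exons. Lag3 (ENSMUSG00000030124) lies on chromosome 6 at 124904361 to 124911705, minus strand, with 8 exons, 16140 bases from Cd4. Tigit (ENSMUSG00000071552) lies on chromosome 16 at 43648867 to 43664146, minus strand, with 4 exons. Havcr2 (ENSMUSG00000020399) lies on chromosome 11 at 46454935 to 46481255, plus strand, with 7 to 8 exons. Cd160 (ENSMUSG00000038304) lies on chromosome 3 at 96798763 to 96829351, minus strand, and overlaps Pdzk1 on the other strand. Entpd1 (ENSMUSG00000048120) lies on chromosome 19 at 40612366 to 40741602, plus strand. Tox (ENSMUSG00000041272) lies on chromosome 4 at 6686353 to 6991557, minus strand, spans 305205 bases and overlaps the antisense gene Gm11802. Tox2 (ENSMUSG00000074607) lies on chromosome 2 at 163203125 to 163324170, plus strand. Whether the counting used strand is not given in the sources used here, so reads of Cd160 and Tox cannot be told apart from those of the genes that overlap them on the other strand.

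In the class contrasts below, Ctla4 and Tigit were higher in Treg than in CD8 T cells, as was Tox. Pdcd1 and Havcr2 were higher in CD8 T than in conventional CD4 T cells, as were Cd160 and Lag3. The 250 bases before the RefSeq start site are printed for Ctla4, Tigit, Pdcd1 and Havcr2, a choice among these members. They are RefSeq sequences (GRCm38.p6), 5′ to 3′ on the gene's strand. RefSeq starts can differ from the GENCODE spans given above, and the Ctla4 window lies inside the GENCODE span of that gene. Capitals mark GGAAA, the core bound by NFAT factors, and TGANTCA, an AP-1 site, each searched on both strands. Both factors act downstream of the T cell receptor.
Ctla4, chr1:60908775-60909024, plus strand: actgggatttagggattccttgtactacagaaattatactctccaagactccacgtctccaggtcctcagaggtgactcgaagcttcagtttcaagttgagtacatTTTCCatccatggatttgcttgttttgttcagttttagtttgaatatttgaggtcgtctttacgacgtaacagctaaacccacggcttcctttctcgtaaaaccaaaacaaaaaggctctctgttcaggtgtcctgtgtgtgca
Tigit, chr16:43664185-43664434, minus strand: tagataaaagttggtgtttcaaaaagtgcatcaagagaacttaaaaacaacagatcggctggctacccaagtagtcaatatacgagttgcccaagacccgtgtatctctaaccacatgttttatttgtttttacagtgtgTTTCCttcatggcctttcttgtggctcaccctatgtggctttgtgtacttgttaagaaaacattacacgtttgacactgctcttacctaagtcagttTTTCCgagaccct
Pdcd1, chr1:94052554-94052803, minus strand: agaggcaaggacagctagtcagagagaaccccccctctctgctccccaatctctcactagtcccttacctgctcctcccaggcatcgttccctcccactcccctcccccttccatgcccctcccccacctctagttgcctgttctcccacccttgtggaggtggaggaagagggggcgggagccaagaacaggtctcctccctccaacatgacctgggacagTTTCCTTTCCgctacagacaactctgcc
Havcr2, chr11:46454681-46454930, plus strand: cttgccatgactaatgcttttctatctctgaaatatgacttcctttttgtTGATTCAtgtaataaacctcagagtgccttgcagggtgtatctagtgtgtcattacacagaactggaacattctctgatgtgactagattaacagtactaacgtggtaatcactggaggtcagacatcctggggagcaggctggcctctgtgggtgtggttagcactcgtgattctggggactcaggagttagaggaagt
GGAAA was found at 1 place before Ctla4, at 2 before Tigit, at 2 before Pdcd1 and at 0 before Havcr2, and 55.6% of 32851 such stretches hold it. TGANTCA was found at 1 place before Havcr2 and not before the other 3, and 6.75% of all hold it. No match of one motif overlapped a match of the other. These are matches of letters in a window, given as a description.

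The members differed in which lymphocytes held them. Among the 4 larger classes Ctla4 was highest in Treg cells, Cd160 and Lag3 in CD8 T cells, and Pdcd1 in CD8 T cells of 3 of the 4 libraries, while NK cells were low for most. Levels below are CPM of the summed UMIs of a class, and the tests are edgeR quasi-likelihood F-tests over the 4 libraries with library as a block, adjusted over 6604 genes by Benjamini-Hochberg. Fold changes are given on the log2 scale with their standard error (SE). The fit tested 8 of the 9 members, since Tox2 did not pass the filter on low counts. The p-values set a class difference against the variation that 1 fit of all 4 classes leaves over these 4 libraries, with the spread estimated partly across genes. Each library is 1 pool, and the pools differ in tumor model and genotype, so they are not replicates of 1 condition.

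**Figure D1:**
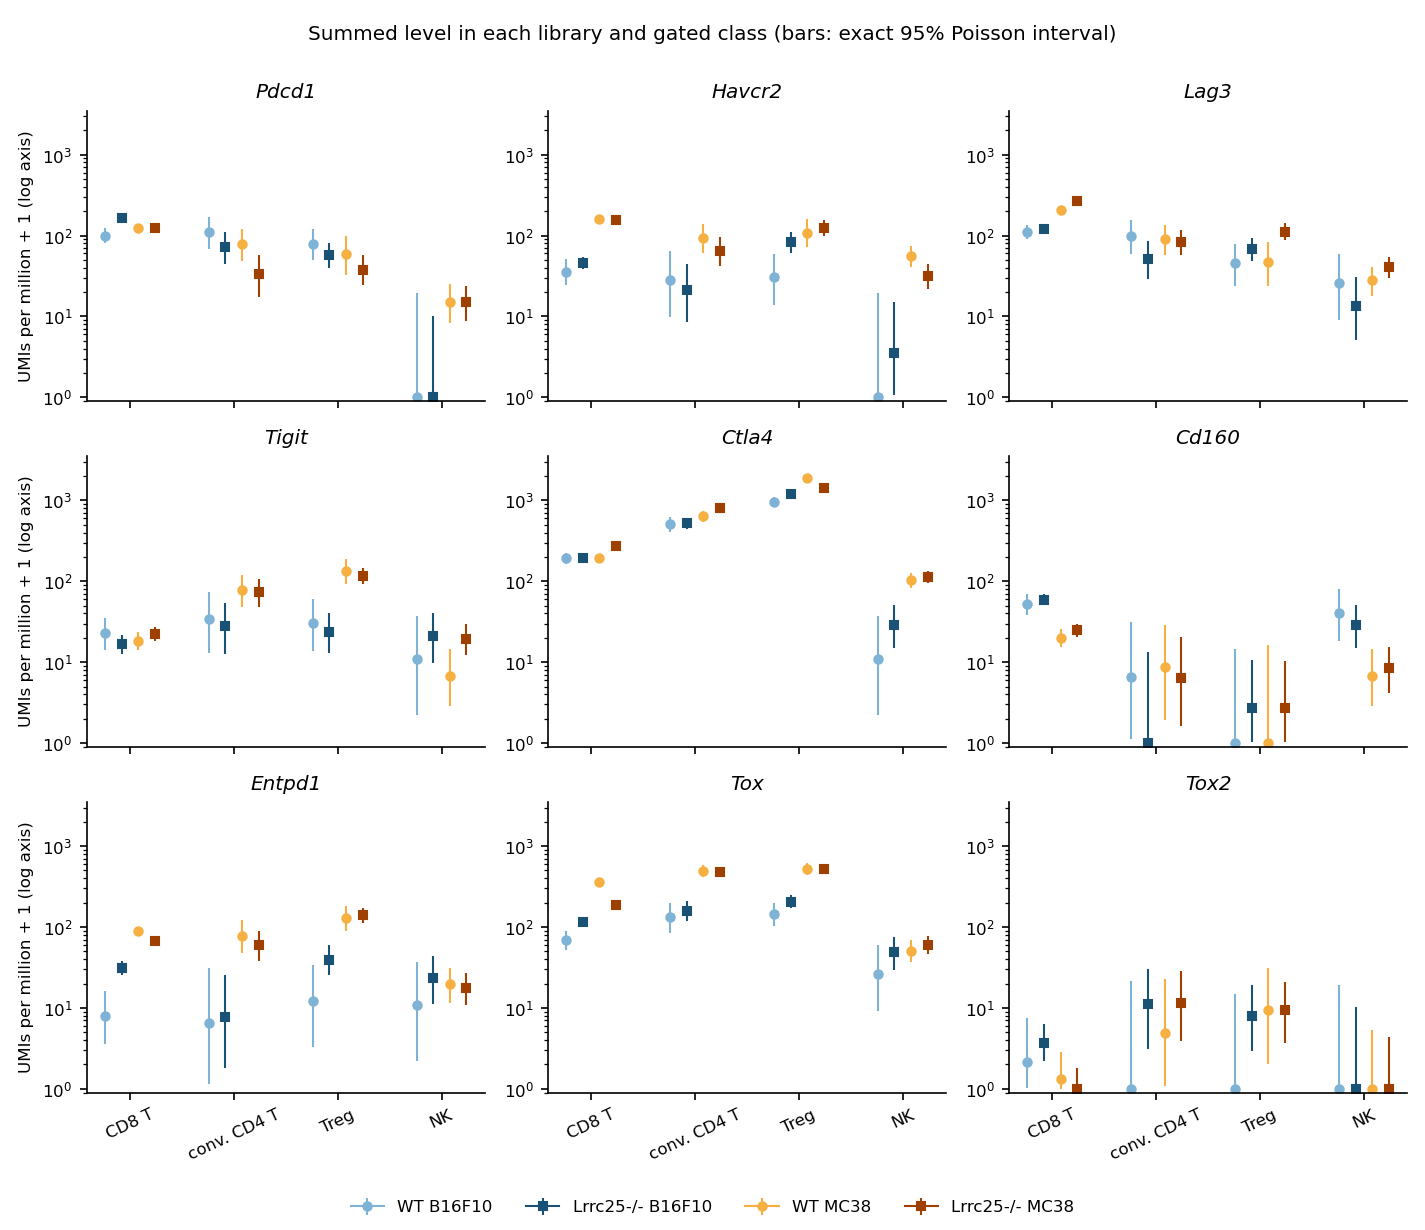
Level of the 9 genes in CD8 T, conventional (conv.) CD4 T, Treg and NK cells, as CPM + 1 on a log axis, 1 point per library with its exact 95% Poisson interval. Ctla4 is highest in Treg cells in each library, and Cd160 in Treg cells sits at or near the bottom of the axis.

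Ctla4, which competes with Cd28 for B7 ligands, measured 966, 1212, 1894 and 1428 CPM in Treg cells. Conventional CD4 T cells held 505, 519.9, 632 and 808 CPM, CD8 T cells 191, 191, 194 and 270.3 CPM and NK cells 9.98, 27.6, 103 and 112 CPM. The order of the classes was the same in each library, and the ranges of the 4 classes did not overlap. The edgeR log2 fold change was 1.11 (SE 0.23, adjusted p = 0.00447) for Treg against conventional CD4 T cells and 2.50 (SE 0.24, adjusted p = 4.31e-08) for Treg against CD8 T cells. A Ctla4 UMI was found in 64.7%, 72.2%, 85.4% and 80.6% of Treg cells thinned to 1500 UMIs, against 0.156% to 0.285% of macrophages at that depth. A Treg cell without a captured Foxp3 UMI falls in the conventional class, and how many did so was not tested. Named by Leiden cluster, which takes in cells that met no gate, conventional CD4 T cells numbered 117, 328, 40 and 47. Treg cells then numbered 91, 182, 125 and 244, so in MC38 the conventional class was smaller and the Treg class larger than by the gates.

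Pdcd1, the receptor for PD-L1 and PD-L2, measured 98.9, 162, 123 and 123 CPM in CD8 T cells. Conventional CD4 T cells held 109.8, 70.9, 77.5 and 32.0 CPM and Treg cells 78.0, 56.1, 58.1 and 37.0 CPM. CD8 T cells were higher than Treg cells in all 4 libraries and higher than conventional CD4 T cells in 3, the exception being the WT B16F10 pool. The edgeR log2 fold change was -1.41 (SE 0.28, adjusted p = 0.000652) for Treg against CD8 T cells and 1.07 (SE 0.29, adjusted p = 0.0197) for CD8 T against conventional CD4 T cells. NK cells of the B16F10 pools had no Pdcd1 UMI, which allows up to 15.0 and 7.54 CPM, and those of MC38 had 14.0 and 13.9 CPM.

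Lag3, which binds MHC class II, measured 111, 119, 204 and 266 CPM in CD8 T cells and 98.8, 50.6, 89.1 and 82.7 CPM in conventional CD4 T cells. It was higher in CD8 T cells in each library, by least in the WT B16F10 pool. The edgeR log2 fold change was 1.29 (SE 0.22, adjusted p = 0.000324). Treg cells held 44.6, 66.6, 45.7 and 111 CPM, below CD8 T cells in each library, with a log2 fold change of -1.44 (SE 0.20, adjusted p = 1.28e-05).

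Tigit, a receptor for the poliovirus receptor protein, measured 29.7, 22.8, 133 and 116 CPM in Treg cells. Conventional CD4 T cells held 32.9, 27.0, 77.5 and 72.0 CPM and CD8 T cells 22.1, 15.7, 17.5 and 21.2 CPM. Treg cells were higher than CD8 T cells in each library, though in B16F10 the Treg levels rest on 8 and 13 UMIs. The edgeR log2 fold change was 1.76 (SE 0.32, adjusted p = 0.000308). Without the Lrrc25-/- MC38 pool the adjusted p was 0.0604.

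Havcr2, a receptor known on both T cells and myeloid cells, measured 34.9, 44.4, 157 and 157 CPM in CD8 T cells. Treg cells held 29.7, 82.4, 108 and 124 CPM and conventional CD4 T cells 27.4, 20.3, 93.0 and 64.0 CPM. In each of these 3 classes both B16F10 pools lay below both MC38 pools. CD8 T cells exceeded conventional CD4 T cells in edgeR by 1.08 (SE 0.30, adjusted p = 0.0227), and for Treg against CD8 T cells the log2 fold change was -0.17 (SE 0.25, adjusted p = 0.720). Macrophages held 20.7, 23.2, 114 and 149 CPM of Havcr2. Macrophage-list UMIs in CD8 T, conventional CD4 T, Treg and NK cells were 1.71% to 3.82% of their level in macrophages, a share that would carry at most 5.71 CPM of Havcr2 and 7.54 CPM of Entpd1 there. In gamma-delta T cells that share reached 4.83%.

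Cd160, a receptor for the herpesvirus entry mediator, measured 51.2, 58.5, 18.8 and 23.7 CPM in CD8 T cells and 39.9, 27.6, 5.83 and 7.42 CPM in NK cells. Treg cells held 2 UMIs in all against 376 in CD8 T cells, a ratio of CPM of 28.1 (7.74 to 233, exact 95% interval for counting error only), and edgeR called it (adjusted p = 5.16e-07). Conventional CD4 T cells were also low, with 1, 0, 2 and 2 UMIs. The edgeR log2 fold change of CD8 T against conventional CD4 T cells was 3.10 (SE 0.50, adjusted p = 0.000190).

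Entpd1 measured 6.98, 30.4, 88.4 and 65.3 CPM in CD8 T cells and 11.1, 38.6, 129 and 138 CPM in Treg cells. Treg cells lay above CD8 T cells in each library, and the edgeR log2 fold change was 0.56 (SE 0.24, adjusted p = 0.111), which did not pass. Treg against conventional CD4 T cells gave 1.08 (SE 0.32, adjusted p = 0.0493), and 9 of 12 alternatives, leaving out any 1 library among them, did not call it (adjusted p 0.0669 to 1.00). Macrophages held 82.6, 101, 191 and 197 CPM of Entpd1, more than any of these classes in the same library.

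Tox measured 67.5, 115, 357 and 184 CPM in CD8 T cells, 132, 159, 492 and 480.0 CPM in conventional CD4 T cells and 145, 205, 523 and 515 CPM in Treg cells. CD8 T cells were the lowest of these 3 classes in each library. In edgeR Treg cells were higher than CD8 T cells by 0.80 (SE 0.18, adjusted p = 0.00269), and CD8 T against conventional CD4 T cells gave -0.68 (SE 0.19, adjusted p = 0.0215). The latter turned to 0.28 (adjusted p = 0.425) when cells were named by Leiden cluster. Without the Lrrc25-/- MC38 pool the adjusted p of Treg against CD8 T cells was 0.0925. For Treg against conventional CD4 T cells Tox gave 0.12 (SE 0.20, adjusted p = 0.821) in edgeR. Over 12 alternatives that value ran from 0.05 to 1.22, and 1 of them called it. NK cells held 24.96, 47.7, 50.2 and 59.3 CPM and macrophages at most 0.880 CPM.

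Tox2, a relative of Tox, was scarce, with 1, 8, 1 and 0 UMIs in CD8 T cells, 0, 3, 1 and 4 in conventional CD4 T cells and 0, 4, 2 and 5 in Treg cells. NK cells had none, which allows 2.78 to 15.0 CPM. Gamma-delta T cells were too few for the fits. Their Pdcd1 UMIs numbered 1, 16, 1 and 18 (33.3, 157, 46.7 and 106 CPM) and their Tox UMIs 1, 11, 12 and 59, while Havcr2, Lag3, Tigit, Cd160 and Entpd1 had at most 5 UMIs in any library.

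**Figure D2:**
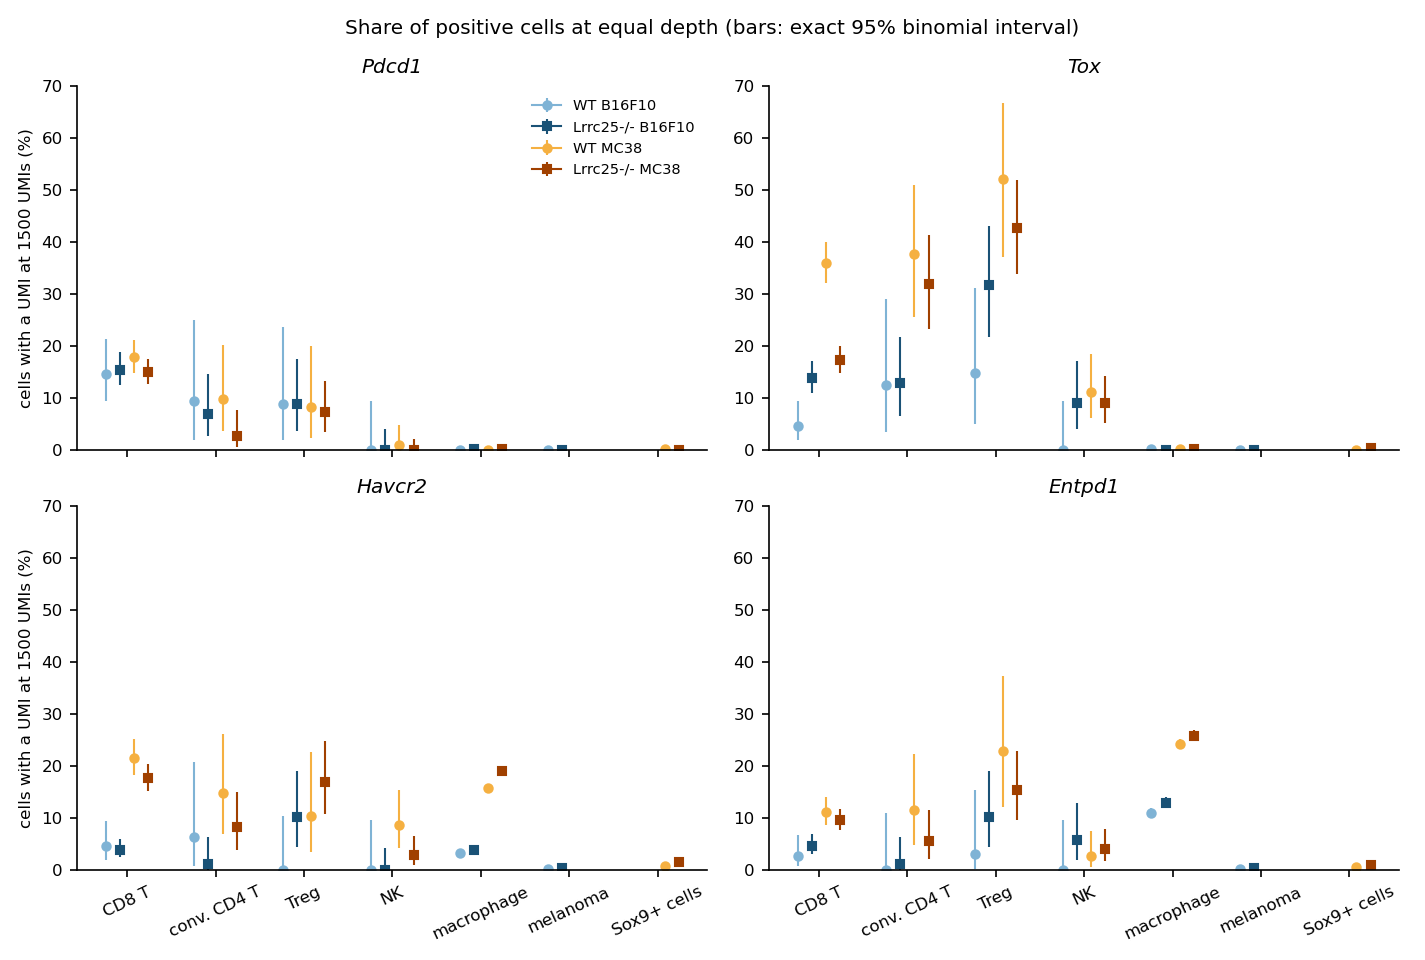
Share of cells with a UMI of Pdcd1, Tox, Havcr2 or Entpd1 after each cell was thinned to 1500 UMIs, in the lymphoid classes, macrophages, melanoma cells of B16F10 and Sox9+ cells of MC38, 1 point per library with its exact 95% binomial interval. Pdcd1 and Tox stay near 0 in macrophages and tumor cells, and Havcr2 and Entpd1 are seen in macrophages too.

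Set beside all genes tested, the members were called as follows. For CD8 T against NK cells, 7 of 8 members were higher (all but Tigit) and 0 lower, where 13.3% of genes were called and 6.78% were higher. For CD8 T against conventional CD4 T cells 4 were higher (Cd160, Lag3, Havcr2 and Pdcd1) and 3 lower (Ctla4, Tigit and Tox), where 9.99% of genes were called. For Treg against CD8 T cells 3 were higher (Ctla4, Tigit and Tox) and 3 lower (Cd160, Lag3 and Pdcd1), where 17.4% were called. Treg against conventional CD4 T cells had 2 higher (Ctla4 and Entpd1), where 5.8% were called. The members' median log2 fold change for CD8 T against NK cells was 1.76, beside 0.03 over all genes tested.

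**Figure D3:**
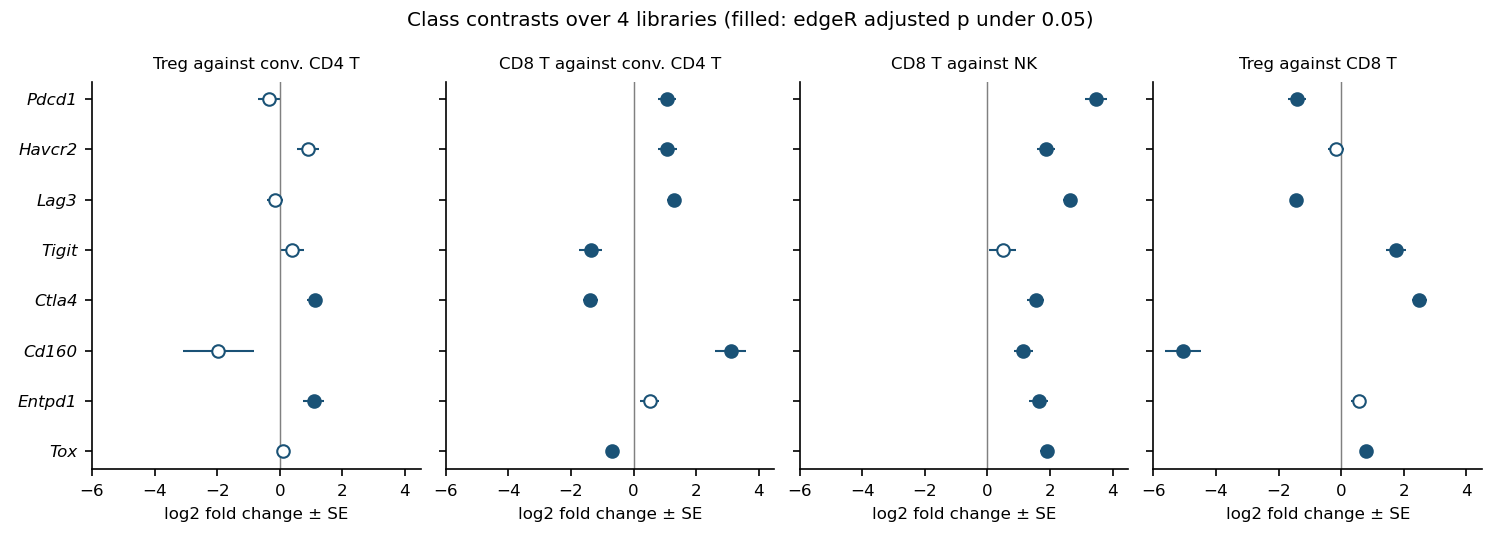
The edgeR log2 fold change with its SE for the 8 members tested in 4 class contrasts over 4 libraries, with library as a block, filled where the adjusted p was under 0.05. All 8 lie to the right of 0 in CD8 T against NK cells, and in both Treg panels Ctla4 lies to the right and Cd160 to the left.

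Ctla4, Pdcd1 and Lag3 in CD8 T against NK cells, and Ctla4, Cd160 and Lag3 in Treg against CD8 T cells, were called under each alternative that gave a value. The calls for CD8 T against conventional CD4 T cells were less stable, since Pdcd1, Tigit and Tox were kept under 5 of 12 alternatives and Havcr2 under 6 of 12. Without the WT MC38 pool the edgeR adjusted p was 0.0750 for Pdcd1, 0.117 for Tigit and 0.0550 for Havcr2. Without the Lrrc25-/- MC38 pool it was 0.279, 0.279 and 0.310 for the same genes and 0.366 for Tox. Pdcd1 was also lost without the Lrrc25-/- B16F10 pool (0.0552) and Tox without the WT B16F10 pool (0.0566). For CD8 T against NK cells, Cd160 (1.15, SE 0.30, adjusted p = 0.00962) was lost without the WT MC38 pool (0.0531) or the Lrrc25-/- MC38 pool (0.142).

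Other genes of the programme were followed in fixed lists. Of all 6604 genes tested, 9.99% were called for CD8 T against conventional CD4 T cells (264 higher and 396 lower). For Treg against CD8 T cells 17.4% were called (545 higher and 605 lower). Of 12 effector genes tested, 8 were higher and 0 lower in CD8 T than in conventional CD4 T cells, led by Prf1, which forms pores in target cells, at 2.77 (SE 0.40, adjusted p = 6.48e-05) in edgeR, and by the granzyme Gzma at 2.27 (SE 0.50, adjusted p = 0.00403). In Treg against CD8 T cells 11 of 12 were lower and 0 higher. Of 20 transcription factors tied to exhaustion, 10 were lower and 5 higher in Treg than in CD8 T cells, with Maf at 4.06 (SE 0.46, adjusted p = 5.52e-07) and Tcf7 at -3.22 (SE 0.55, adjusted p = 0.000152) in edgeR. Of 11 other inhibitory receptors, 3 were higher and 3 lower, led by Klrg1 (4.33, SE 0.49, adjusted p = 5.52e-07) and Klrc1 (-3.50, SE 0.20, adjusted p = 2.14e-11). Of 9 costimulatory receptors, 5 were higher and 1 lower, the latter being Cd226 (-2.88, SE 0.26, adjusted p = 1.9e-08), which shares its ligand with Tigit. Of 17 signal dampers, 1 was higher and 4 were lower.

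Over the 18 sums of a library and a class with at least 20 cells, the genes whose level was most like that of each member were sought among 7220 candidates. Pearson correlations of log2(CPM + 1) are descriptions here, since the sums share libraries and depths. They were highest with S100a4 (0.92) and Prkcz (0.90) for Pdcd1, Psip1 (0.95) and Glrx (0.92) for Ctla4 and Kifc1 (0.92) and Rab3ip (0.89) for Lag3. The closest genes were Zc3h12d (0.94) and Usf1 (0.89) for Tigit, Iqcb1 (0.93) and Mtbp (0.92) for Havcr2 and Wdr95 (0.85) and Crtam (0.84) for Cd160. For Entpd1 they were Adap1 (0.95) and Wdr6 (0.93), for Tox Sh3kbp1 (0.95) and Mxi1 (0.94) and for Tox2 Il1rl1 (0.86) and Gata3 (0.82). Tox2 had at most 8 UMIs in any of these sums, so its correlations rest on very few counts. Between members the highest value was 0.76, for Tigit with Entpd1, and the lowest -0.59, for Ctla4 with Cd160.

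CD8 T cells were split by panels that hold no member. A cell was cycling with 3 or more UMIs of a proliferation panel, naive or memory-like if not cycling and with 2 or more UMIs of a second panel, and otherwise other noncycling. Cycling cells made up 26.7%, 19.1%, 32.6% and 18.2% of CD8 T cells and naive or memory-like cells 33.7%, 38.0%, 24.2% and 46.2%. The subsets are ranges of a score, with 17, 45, 71 and 101 cells next to the limit for cycling and 50, 180, 149 and 265 next to the other limit. Cycling cells were deeper, with median UMIs of 8836, 10717, 6725 and 7546 against 1950.0, 1783, 3600.5 and 3762 in other noncycling cells.

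Cd160 measured 65.1, 62.5, 25.8 and 33.1 CPM in cycling and 24.4, 43.2, 15.0 and 18.6 CPM in other noncycling cells. It was higher in cycling cells in each library, though other noncycling cells of the WT B16F10 pool held 4 UMIs of it. Its edgeR log2 fold change was 0.81 (SE 0.23, adjusted p = 0.00971), which became 0.28 (adjusted p = 0.348) with the panels read at 1500 UMIs per cell. Entpd1 was lower in cycling cells in each library, at 2.17, 29.1, 77.3 and 47.8 CPM against 18.3, 36.6, 109 and 89.1 CPM, with a log2 fold change of -0.65 (SE 0.18, adjusted p = 0.00960). Its values in the WT B16F10 pool rest on 1 and 3 UMIs. Without the Lrrc25-/- MC38 pool the edgeR adjusted p was 0.0527 for Cd160 and 0.211 for Entpd1. So 2 of 8 members were called, where 24.3% of 7965 genes were. With the panels read at 1500 UMIs 2 of 8 were called as well, Entpd1 and Havcr2, both lower in cycling cells, where 1786 of 7697 genes were called. In naive or memory-like against other noncycling cells edgeR and DESeq2 both called 0 of 8 members, where edgeR called 0.289% of genes, and at an unadjusted p under 0.05 there were 2 in edgeR, Ctla4 at 0.56 (SE 0.20) and Entpd1 at -0.45 (SE 0.18).

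The number of different receptors in 1 CD8 T cell was compared at equal depth. The 7 surface members, all but Tox and Tox2, were scored in cells thinned to 1500 UMIs, which kept 150, 519, 567 and 876 CD8 T cells and put aside 22, 113, 12 and 18 shallower ones. The mean number with a UMI was 0.560, 0.584, 1.01 and 1.09 per cell. None was seen in 56.0%, 59.0%, 33.2% and 32.4% of cells, and at least 2 in 11.3%, 14.8%, 25.6% and 30.7%. Cells with 3 or more numbered 1, 9, 45 and 82, or 0.667% (0.0169 to 3.66), 1.73% (0.796 to 3.27), 7.94% (5.85 to 10.5) and 9.36% (7.51 to 11.5) with exact 95% binomial intervals. In this draw both MC38 pools lay above both B16F10 pools, with intervals that did not overlap. Intervals were not computed for the other settings, where the Lrrc25-/- B16F10 and WT MC38 pools stood at 1.33% and 2.26% for 1000 UMIs, 12.8% and 18.9% for 2500 UMIs and 1.35% and 1.94% without Havcr2 and Entpd1. Another random draw gave 2.70% and 7.58% for these pools and 2.67% for WT B16F10. Before thinning, 18.6%, 22.3%, 43.9% and 46.2% of cells had 3 or more.

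**Figure D4:**
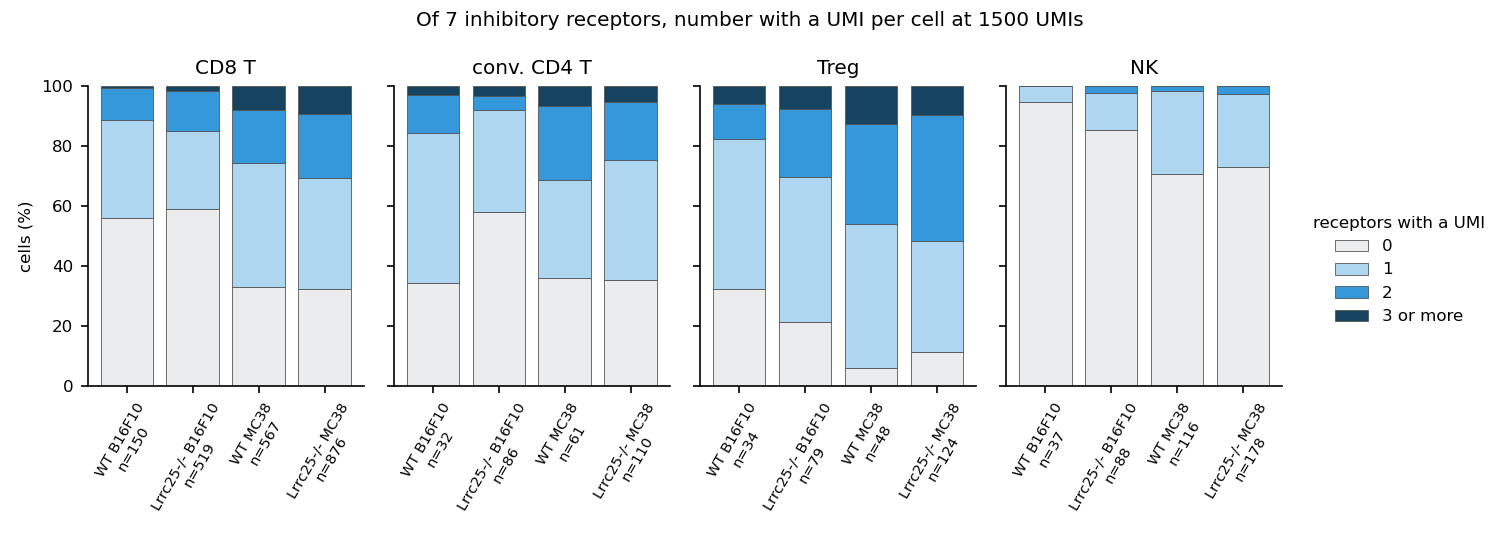
Share of cells with 0, 1, 2 or at least 3 of the 7 surface members after thinning to 1500 UMIs, in CD8 T, conventional (conv.) CD4 T, Treg and NK cells of each library, with the number of cells under each bar. In CD8 T cells the darkest segment is larger in both MC38 pools than in both B16F10 pools, and NK cells have none.

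The ratio of the Lrrc25-/- to the WT share with 3 or more was 2.60 (0.360 to 114) in B16F10 and 1.18 (0.810 to 1.74) in MC38, both intervals holding 1. Another random draw gave 1.01 and 1.52, and the latter, at 1.05 to 2.23, lay above 1. At 1000 UMIs the MC38 ratio was 2.10 (1.10 to 4.26) and at 2500 UMIs 1.29 (1.003 to 1.66), both intervals above 1. The B16F10 ratio at 2500 UMIs was 2.30 (0.977 to 6.61). Other noncycling CD8 T cells of MC38 had 3 or more in 7.14% (4.22 to 11.2) of WT and 12.3% (8.77 to 16.5) of Lrrc25-/- cells, and naive or memory-like ones in 10.7% (6.12 to 17.1) and 7.54% (5.18 to 10.5). At least 2 receptors were seen in 17.6%, 30.4%, 45.8% and 51.6% of Treg cells and 15.6%, 8.14%, 31.1% and 24.5% of conventional CD4 T cells. In NK cells 0 of 37, 88, 116 and 178 cells had 3, which allows up to 9.49%, 4.11%, 3.13% and 2.05% by the exact interval.

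Pairs of members in the same thinned CD8 T cell were set beside the number that independence of their separate shares would give, here in parentheses, and the pairs below were chosen after their values were seen. In the WT and Lrrc25-/- MC38 pools Havcr2 and Lag3 met in 40 (29.5) and 58 (47.1) cells. Lag3 and Tox met there in 45 (49.3) and 52 (45.9) cells, below the number for independence in one pool and above it in the other. In the Lrrc25-/- B16F10 pool Lag3 met Tox in 18 (8.32) cells and Ctla4 in 20 (9.94). At such sparse counts these are descriptions only.

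Between the tumor models, CD8 T cells of MC38 held more Havcr2, Entpd1, Tox and Lag3 and less Cd160 than those of B16F10, with no overlap of the pools in the levels given above. With genotype as the other term and 1 residual degree of freedom, the edgeR log2 differences of MC38 against B16F10 were 1.53 (SE 0.19, adjusted p = 1.23e-05) for Havcr2, 1.33 (SE 0.31, adjusted p = 0.00200) for Entpd1, 1.00 (SE 0.27, adjusted p = 0.00570) for Tox and 0.60 (SE 0.19, adjusted p = 0.0143) for Lag3. Cd160 gave -1.78 (SE 0.21, adjusted p = 7.6e-06) and Pdcd1, whose levels overlapped, -0.51 (SE 0.19, adjusted p = 0.0335). The Pdcd1 call held under 2 of 5 alternatives, with log2 differences from -0.59 to -0.06. The Lag3 call held under 4 of 5, DESeq2 giving Lag3 an adjusted p of 0.0816. These edgeR fits scale the sums by TMM, so their log2 differences are not those of the CPM levels and can lie below them. Ctla4, at 191, 191, 194 and 270.3 CPM, gave -0.16 (SE 0.20, adjusted p = 0.519) in edgeR. So 6 of 8 members were called, where 54.1% of 10128 genes were called.

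In conventional CD4 T cells Entpd1, Tox and Havcr2 were higher in MC38 and Pdcd1 was lower, 4 of 7 members tested, where 45.7% of genes were called. In Treg cells Entpd1, Tigit and Tox were higher and Pdcd1 lower, 4 of 7, where 44.2% were called. In NK cells Havcr2 and Ctla4 were higher and Cd160 lower, 3 of 7, where 36.1% were called. The Pdcd1 calls held under 3 of 5 alternatives in conventional CD4 T cells and 2 of 5 in Treg cells. Havcr2 in NK cells had 80 UMIs in the MC38 pools and 1 in the B16F10 pools, a ratio of CPM of 24.7 (4.31 to 989). Entpd1 in conventional CD4 T cells had 42 and 3, a ratio of 10.6 (3.38 to 53.4). RNA composition moved with the model too, since in CD8 T cells the nuclear RNA Malat1 made up 0.0928%, 0.104%, 0.813% and 0.939% of UMIs and genes of 200000 bases or longer, Tox among them, 1.13%, 1.45%, 4.31% and 4.24%. Its part in the differences between the models was not tested.

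No member passed the test of Lrrc25-/- against WT pools over both models. In edgeR fits with model as the other term, 0 of 8 members were called in CD8 T cells and 0 of 7 in conventional CD4 T, Treg and NK cells, where 0.0197%, 0.937%, 0% and 0.0158% of genes were called. At an unadjusted p under 0.05 edgeR had Pdcd1 in conventional CD4 T cells (-0.98, SE 0.39, adjusted p = 0.252) and Lag3 in Treg cells (0.94, SE 0.38, adjusted p = 0.999), among 483 and 224 genes. CD8 T and NK cells had 0 members there, among 628 and 410 genes, and DESeq2 called 0 members in each class. Tox in CD8 T cells gave -0.25, SE 0.27, adjusted p = 0.948 in edgeR. Within a model only the size of a difference can be given. A gene was measured with 50 UMIs in both libraries together and 20 CPM in either, and called higher or lower at a ratio of CPM + 1 of at least 1.5.

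Tox went in opposite directions in CD8 T cells of the models. In B16F10 it measured 67.5 CPM (51.2 to 87.2) in the WT and 115 CPM (103 to 128) in the Lrrc25-/- pool with exact 95% Poisson intervals, a ratio of 1.71 (1.29 to 2.30). In MC38 it measured 357 CPM (336 to 379) and 184 CPM (171 to 197), a ratio of 0.515 (0.470 to 0.565). The intervals of the genotypes did not overlap in either model. Cells with a Tox UMI at 1500 UMIs made up 4.67% (1.90 to 9.38) and 13.9% (11.02 to 17.1) in B16F10 and 36.0% (32.0 to 40.1) and 17.2% (14.8 to 19.9) in MC38, and at most 0.144% of macrophages. Counting error is all that these intervals cover, since each pool hides the spread between its mice.

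The subsets of CD8 T cells went the same way. In cycling cells the ratio was 1.53 (1.07 to 2.24) in B16F10 and 0.553 (0.475 to 0.642) in MC38, where 18.2% and 8.74% of measured genes passed the limit in either direction. In naive or memory-like cells it was 2.67 (1.39 to 5.72) and 0.577 (0.478 to 0.699), where 22% and 15.9% passed. Other noncycling cells gave 1.5 (0.757 to 3.30), which rests on 10 and 55 UMIs and is not called, since the ratio of CPM + 1 is under the limit, and 0.495 (0.421 to 0.581), where 19.1% and 11.7% passed. The mix of subsets differed as well, with naive or memory-like cells at 24.2% and 46.2% of the WT and Lrrc25-/- MC38 pools, and at a common mix the Tox log2 fold was 0.85 in B16F10 and -0.90 in MC38. The log2 fold for all CD8 T cells ran from 0.63 to 1.16 in B16F10 and from -1.04 to -0.80 in MC38 over 9 alternatives, of which a limit of 2-fold in place of 1.5-fold ended both calls. Long genes moved in B16F10 as well, where the median log2 fold of 171 measured genes of 200000 bases or longer was 0.36 and 17.5% of them were at or above Tox. In MC38 that median was -0.11 over 302 genes, with 4.97% at or below Tox, and the part of gene length in the Tox values was not tested. In Treg cells the Tox ratios were 1.42 (0.978 to 2.09) and 0.983 (0.797 to 1.22), and in conventional CD4 T cells 1.204 (0.722 to 2.06) and 0.975 (0.773 to 1.23), so all 4 intervals hold 1. Tox was called higher in B16F10 Treg cells with Leiden names, a gate of 2 UMIs or the dropped sub-clusters included (log2 fold up to 0.94). In conventional CD4 T cells it was called in B16F10 with those sub-clusters included (0.67) and in MC38 with Leiden names (-0.70).

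**Figure D5:**
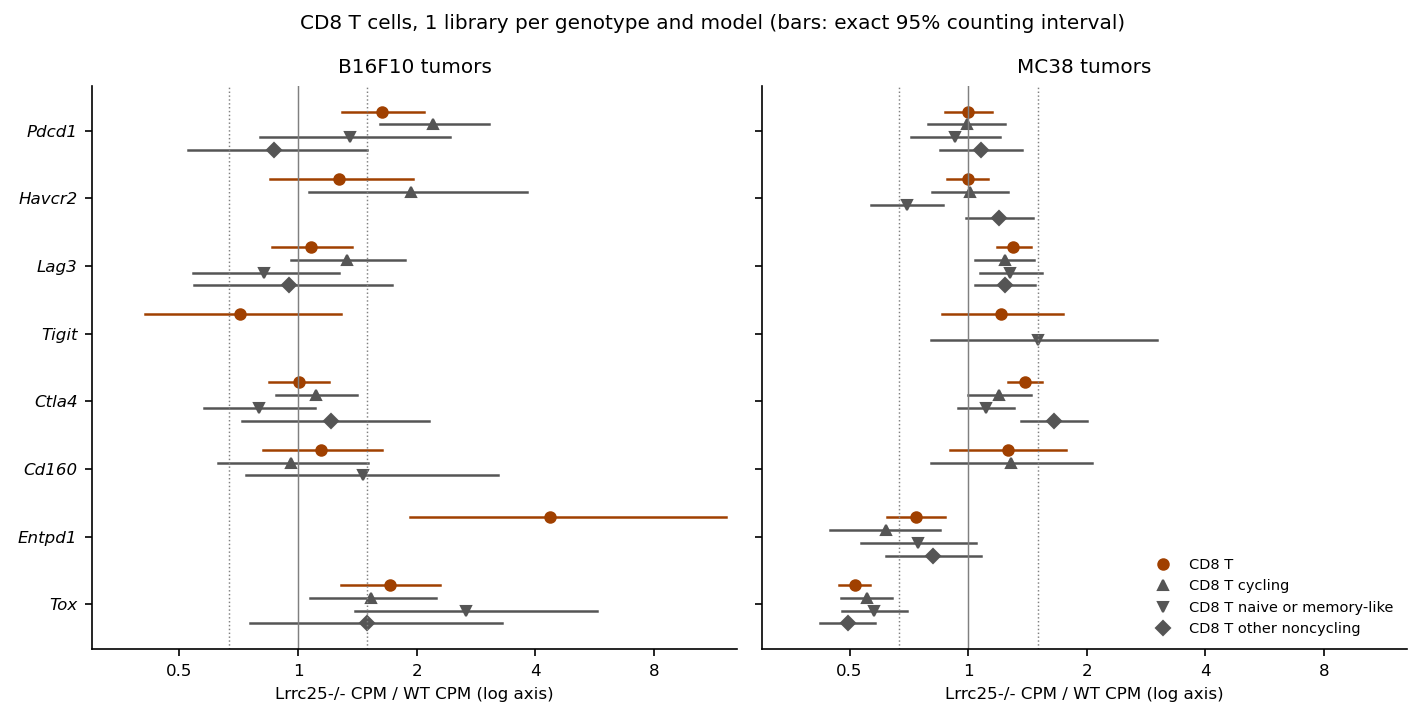
Ratio of Lrrc25-/- to WT CPM on a log axis for 8 members in CD8 T cells and their subsets, in B16F10 (left) and MC38 (right), with exact 95% counting intervals, a solid line at 1 and dotted lines at the 1.5-fold limit. Values under the count minimum are left out, and Tox lies to the right of 1 in B16F10 and to the left of it in MC38 in each subset.

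Pdcd1 and Entpd1 were also called in B16F10 CD8 T cells, making 3 of 8 measured members higher and 0 lower, where 15.2% of measured genes were called and 12% were higher. Pdcd1 measured 98.9 and 162 CPM, a ratio of 1.64 (1.30 to 2.09). Cells with a Pdcd1 UMI at equal depth made up 14.7% (9.43 to 21.4) and 15.4% (12.4 to 18.8), with intervals that overlap. In cycling cells Pdcd1 measured 102 and 224 CPM, a ratio of 2.20 (1.62 to 3.06), and in other noncycling cells 128 and 111 CPM, a ratio of 0.8702 (0.526 to 1.496). The log2 fold of 0.70 for all CD8 T cells became 0.16 as a mean of per-cell CPM, 0.37 at a common mix of subsets and 0.54 with Leiden names, none of which reaches the limit. With the dropped sub-clusters included the pools held 61.2 and 136 CPM, and the log2 fold rose to 1.14. In MC38 Pdcd1 measured 123 and 123 CPM, a ratio of 1.00 (0.876 to 1.15).

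Entpd1 in B16F10 CD8 T cells had 6 and 89 UMIs, or 6.98 and 30.4 CPM, a ratio of 4.36 (1.93 to 12.2). With the dropped sub-clusters included the pools held 35.2 and 33.5 CPM, and the log2 fold went from 1.98 to -0.068, so the call rests on leaving those cells out. In MC38 Entpd1 measured 88.4 and 65.3 CPM, a ratio of 0.738 (0.622 to 0.875), which is under the limit of size.

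In MC38 CD8 T cells Tox alone among 8 measured members was called, where 8.32% of measured genes were called and 4.95% were lower. Ctla4 had a ratio of 1.39 (1.26 to 1.54) and Lag3 one of 1.30 (1.18 to 1.44), both under 1.5 with intervals above 1. In other noncycling cells Ctla4 measured 165 and 272 CPM, a ratio of 1.65 (1.36 to 2.01). Havcr2 measured 157 and 157 CPM, a ratio of 0.998 (0.886 to 1.12). Cd160 and Tigit had ratios of 1.26 (0.902 to 1.77) and 1.21 (0.856 to 1.74). In B16F10 the ratios of Havcr2, Lag3, Tigit, Ctla4 and Cd160 ran from 0.712 to 1.27, and all 5 intervals hold 1.

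Other classes had few members that reached the count minimum. In B16F10 Treg cells Havcr2 rested on 8 and 47 UMIs, or 29.7 and 82.4 CPM, a ratio of 2.77 (1.30 to 6.80), which made 1 of 5 measured members called beside 19% of genes. In MC38 Treg cells Lag3 rested on 11 and 66 UMIs, or 45.7 and 111 CPM, a ratio of 2.43 (1.27 to 5.10), 1 of 6 beside 15.4%. In MC38 NK cells Havcr2 measured 54.8 and 30.6 CPM, a ratio of 0.558 (0.346 to 0.889), 1 of 4 beside 15.4%. In conventional CD4 T cells 0 of 2 measured members were called in B16F10 and 0 of 3 in MC38, beside 33.5% and 21.4%. In B16F10 NK cells 0 members reached the count minimum, and 23.3% of the genes that did were called. For Ctla4 in Treg cells the B16F10 pools gave 966 and 1212 CPM, a ratio of 1.25 (1.09 to 1.45), and the MC38 pools 1894 and 1428 CPM, a ratio of 0.754 (0.672 to 0.847). These lie on opposite sides of 1, and both are under the limit of size. With the dropped sub-clusters included Ctla4 was called higher in B16F10 Treg cells, at a log2 fold of 0.87.

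The fixed lists were read the same way in CD8 T cells, where 15.2% of all measured genes were called in B16F10 and 8.32% in MC38. In MC38 Ikzf2 (Helios) went from 732 to 428 CPM, and Tcf7 and Lef1, factors of less differentiated T cells, from 13.1 to 38.2 CPM and from 30.6 to 82.4 CPM. These belong to 3 transcription factors higher and 1 lower of 19 measured there. In B16F10 5 of 19 were higher, with Klf2 from 233 to 414 CPM and Lef1 from 47.7 to 85.1 CPM, and 1 was lower, Batf from 86.1 to 53.3 CPM. Of 12 effector genes in MC38, 5 were higher, led by Gzma (24.5 to 168 CPM) and the chemokine Ccl5 (404 to 1518 CPM), and Prf1 was lower (607 to 397 CPM, named after its value was seen). In B16F10 9 of 12 were higher and 0 lower, led by Gzmk (52.3 to 165 CPM) and Ifng (138 to 306 CPM). Of 17 signal dampers 7 were higher in B16F10, among them the ubiquitin ligase Cblb (136 to 240.0 CPM), and 2 in MC38, with 0 lower in either. Of 9 other inhibitory receptors 2 were higher in B16F10 (Klrg1 and Lilrb4a) and 1 in MC38 (Cd5, 29.6 to 77.0 CPM). Of 9 costimulatory receptors 2 were higher in B16F10 (Il2ra and Cd226) and 2 in MC38 (Icos and Cd28), with 0 lower in either. The median log2 fold of the 8 measured members was 0.26 in B16F10 and 0.13 in MC38, beside 0.10 and -0.04 over all measured genes.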

How the data were processed

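Single-cell RNA was captured from 4 pooled mouse tumor suspensions with the SeekOne Digital Droplet 3' kit, per the labels' protocols. The deposited matrices hold whole UMI counts per gene and barcode, not normalized by the authors as far as the values show. The submitters' processing notes name mm10 as the genome build. Which aligner, counter and cell caller the authors used is not given in the sources used here. The members and the gene lists were chosen with earlier results of these data known.

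From the counts, cells were kept with at least 300 genes, 500 UMIs and at most 20% mitochondrial UMIs. Cells of all 4 libraries were clustered together, and T and NK cells again per model, with scanpy 1.11.5 (Python 3.11.15, 2000 variable genes, Leiden clusters at resolution 1). Scrublet's own limit called 0% to 2.07% of cells, so the cells with the highest scores were removed at 0.5% per 1000 cells (480 to 1494 per library), which left 9319 to 15792 cells.

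Classes were gated on UMIs inside lymphoid clusters: CD8 T cells with Cd8a or Cd8b1, conventional CD4 T cells with Cd4, Treg cells with Foxp3, NK cells with 2 UMIs of an NK panel and no Cd3, gamma-delta T cells with Cd3 and Trdc. Sub-clusters with an other-lineage level of at least 0.15 or over 25% doublets were left out, a rule set after the data were seen. Counts were summed per library and class and tested with edgeR 4.0.16 (R 4.3.3, TMM, filterByExpr, glmQLFit and glmQLFTest), with Benjamini-Hochberg adjustment and a threshold of 0.05. The SE was derived from the F statistic. The scripts were tested on simulated data.

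The alternatives were DESeq2 1.42.0, other size factors, no filter on low counts, no library block, each library left out, Leiden names, a gate of 2 UMIs, no doublets removed, other thinning depths, another seed, a common subset mix, a mean of per-cell CPM and a 2-fold limit. Sub-clusters kept, and cells under 0.1% macrophage-list UMIs, were added after the data were seen. The 9 members are always named, and of each list only the 3 largest changes per comparison unless stated. Intervals and the limits for a count of 0, set at 3 counts, cover counting error only.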

Additional observations from a re-analysis of the deposited data

Results flagged for a closer look

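Tox stood out because it was called higher in Lrrc25-/- than in WT cells of B16F10 and lower in those of MC38. In CD8 T cells its ratio of Lrrc25-/- to WT CPM was 1.71 in B16F10 and 0.515 in MC38. In cycling CD8 T cells it was 1.53 and 0.553, and in naive or memory-like cells 2.67 and 0.577. Entpd1 in CD8 T cells (4.36 and 0.738) and Ctla4 in Treg cells (1.25 and 0.754) also lay on opposite sides of 1. Neither was called in both models. Each ratio compares 1 library with 1 library, so the difference between the models was not tested. The subsets are parts of the same libraries and are not separate evidence.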

How the results depend on the processing

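Summary values changed little in 142 repeats under other settings (a count of members within 1.5 times its main value, a ratio within its interval) and more in 40, given here as numbers of members. Without the library block, which leaves the classes of a library unpaired, the fits called 0 for Treg against conventional CD4 T (main 2), 0 for CD8 T against conventional CD4 T (main 7), 3 for CD8 T against NK (main 7), 3 for Treg against CD8 T (main 6) and 0 for cycling cells (main 2). The genotype fits pair the pools by tumor model. For Treg against conventional CD4 T, DESeq2 called 1, Leiden names 4, a gate of 2 UMIs 1, no doublet removal 1 and kept sub-clusters 1. For CD8 T against conventional CD4 T, DESeq2 called 4, a gate of 2 UMIs 1 and kept sub-clusters 3. Subset panels read at 1500 UMIs gave 1 for naive or memory-like cells (main 0), Entpd1, which was lower there. Between models DESeq2 called 1 in conventional CD4 T (main 4) and 1 in NK cells (main 3), where it gave an adjusted p for 4 and 1 of 7 members, and 4 in CD8 T cells (main 6). Leaving out 1 library at a time called 1 to 1 for Treg against conventional CD4 T, 3 to 6 for CD8 T against conventional CD4 T, 6 to 7 for CD8 T against NK, 4 to 7 for Treg against CD8 T, 0 to 3 for cycling and 0 to 0 for naive or memory-like cells. Within models, the 2-fold limit left 1 of 3 in B16F10 CD8 T, 0 of 1 in MC38 CD8 T and 0 of 1 in MC38 NK cells. Leiden names gave 2 in MC38 conventional CD4 T (main 0), 4 and 2 in B16F10 and MC38 Treg (main 1 and 1) and 1 and 4 in NK cells (main 0 and 1). Kept sub-clusters gave 2 in B16F10 conventional CD4 T (main 0), 3 in B16F10 Treg and 2 in MC38 NK cells. A gate of 2 UMIs gave 0 in MC38 Treg and 2 in MC38 NK cells, macrophage UMIs under 0.1% gave 2 there, and per-cell means gave 2 in MC38 CD8 T and 2 in B16F10 Treg cells. Among called values, directions reversed for Tox in CD8 T against conventional CD4 T with Leiden names (0.28 on the log2 scale) and for Entpd1 in B16F10 CD8 T cells with kept sub-clusters (-0.068). Values that were not called also turned, such as Lag3 in B16F10 Treg cells (0.57, and -0.75 with Leiden names) and Ctla4 in MC38 NK cells (0.13, and -0.45 with per-cell means). The cause was not tested for any of these. The MC38 co-detection ratio was 2.10 at 1000 UMIs. The B16F10 ratio has no value at 1000 UMIs or without Havcr2 and Entpd1, since 0 WT cells had 3 receptors. Depth limits the smaller classes most, where many members rest on fewer than 50 UMIs.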

Other observations

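Gamma-delta T cells were too few for the comparisons above, at 13, 46, 10 and 60 cells. Tox measured 33.3, 108, 561 and 348 CPM there, and its ratio of Lrrc25-/- to WT was 0.621 (0.330 to 1.27) in MC38, an interval that holds 1. Ctla4 had 0, 8, 1 and 5 UMIs in these cells. In cycling CD8 T cells Havcr2 had a ratio of 1.94 (1.07 to 3.80) in B16F10, at 28.2 and 54.6 CPM, and Entpd1 one of 0.618 (0.447 to 0.850) in MC38, at 77.3 and 47.8 CPM. In NK cells of MC38 Ctla4 measured 103 and 112 CPM, a ratio of 1.09 (0.823 to 1.45).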
